A study of Mus musculus with 2 samples.

Results

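The 38 genes described here belong to the ATF4 branch of the cellular stress response and to serine synthesis, and they were taken by symbol from the deposited gene table of 54532 genes. They comprise 7 transcription factor genes, 6 genes of stress signalling and feedback, 8 amino acid transporter genes, 8 genes for serine, folate and asparagine enzymes, 5 tRNA ligase genes, and 4 genes for secreted factors and a receptor. RNA was sequenced from CT26, a mouse colon carcinoma cell line. One culture received lentivirus encoding Oct4 of mouse and SOX2 of human origin, and the control culture carried lentivirus with the empty expression vector, its genotype being labelled wild type. Both were grown for 4 days in RPMI medium with serum, and the labels describe the first as dedifferentiated. Each condition was 1 library, so there is no replicate check, no test of the treatment, and every difference below is between these libraries.

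ATF4 is a transcription factor whose protein is made when the initiation factor eIF2 is phosphorylated by stress-sensing kinases, through upstream open reading frames in its messenger RNA. It acts as a dimer with other leucine zipper proteins, many of them C/EBP family members, and switches on amino acid uptake, serine and asparagine synthesis, mitochondrial one-carbon metabolism and tRNA charging. Serine made from a glycolytic intermediate gives glycine and one-carbon units for nucleotides, a supply that many tumour cells depend on. Because ATF4 is controlled largely at translation, its transcript level is not a measure of its protein.

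Values are FPKM, fragments scaled to gene length and library size, as deposited. Where a pair of levels is given, the control comes first and the Oct4 and SOX2 library second. A gene counted as measured when it had at least 1 FPKM in at least 1 library, which 12401 genes did. The log2 ratio sets the Oct4 and SOX2 library over the control on FPKM + 1, and understates the difference of low genes. Times lower or higher are plain FPKM ratios, followed in brackets by the 95% counting interval, an exact conditional binomial interval on recovered read numbers. It covers counting error only and says nothing of how cultures vary.

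The control library held 32262408 reads on genes and the other 31521115. Pou5f1, the gene for Oct4, had 0 and 12406 reads, and mouse Sox2, whose transgene was the human one, had 929 and 1525 reads. Reads of a transgene and of the cell's own gene cannot be told apart in these counts. Of 10 colon epithelial markers only 3 reached 1 FPKM in a library, Krt18, Krt20 and Lgals4, while Cdh1 and Cdx1 had no reads and Epcam stayed at or below 0.0308 FPKM. None of 6 leukocyte and 4 endothelial markers reached 1 FPKM, and their summed levels were 0.0034 and 0.0866 FPKM for leukocytes, and 0.120 and 0.580 FPKM for endothelium. The 6 fibroblast and mesenchymal markers summed to 683 and 1020.5 FPKM, of which Vim made up 599 and 966 FPKM. Without Vim the other 5 summed to 83.9 and 54.3 FPKM, with Col1a1, Pdgfrb and Pdgfra lower and Col3a1 and Acta2 higher. The part of these markers in the results below was not tested. In bulk RNA, fewer cells expressing a gene and less RNA per cell cannot be told apart.

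Nearly the whole set was lower with Oct4 and SOX2. Of the 38 genes 35 were measured, of which 34 had a log2 ratio below 0 and 1, Nupr1, above it. Over all genes measured, 51.7% had a ratio below 0. The median log2 ratio of the 35 was -0.45, that is 1.37 times lower, against -0.01 over all genes. At least 1.5-fold lower were 10 of the 35, where 6.34% of all genes were, and at least 2-fold lower were 3, namely Ddit4, Aldh1l2 and Ddit3, where 1.85% were. None of the 35 was 1.5-fold higher, which 6.58% of all genes were. The differences were graded: by plain ratio 16 measured genes lay between 1.15 and 1.5 times lower, and 7 were under 1.15 times lower. Slc7a3 was past 1.5 by plain ratio but not on the FPKM + 1 scale used for the counts.

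Most of these genes are abundant in CT26 cells, and 32 of the 38 had at least 10 FPKM in a library. At that level 5693 genes were compared. Of these 32 members 31 were below 0 and 10 were 1.5-fold lower, against 54.4% and 5.92% of the genes at that level, while none was 1.5-fold higher, against 5.20%. The medians were -0.44 and -0.03. When all 12401 measured genes were ordered by log2 ratio, 34 of the 35 members lay below percentile 50, 17 below percentile 10 and 10 below percentile 5. Summed over the 38 genes, expression stood at 4050 and 2923 FPKM.

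**Figure D1:**
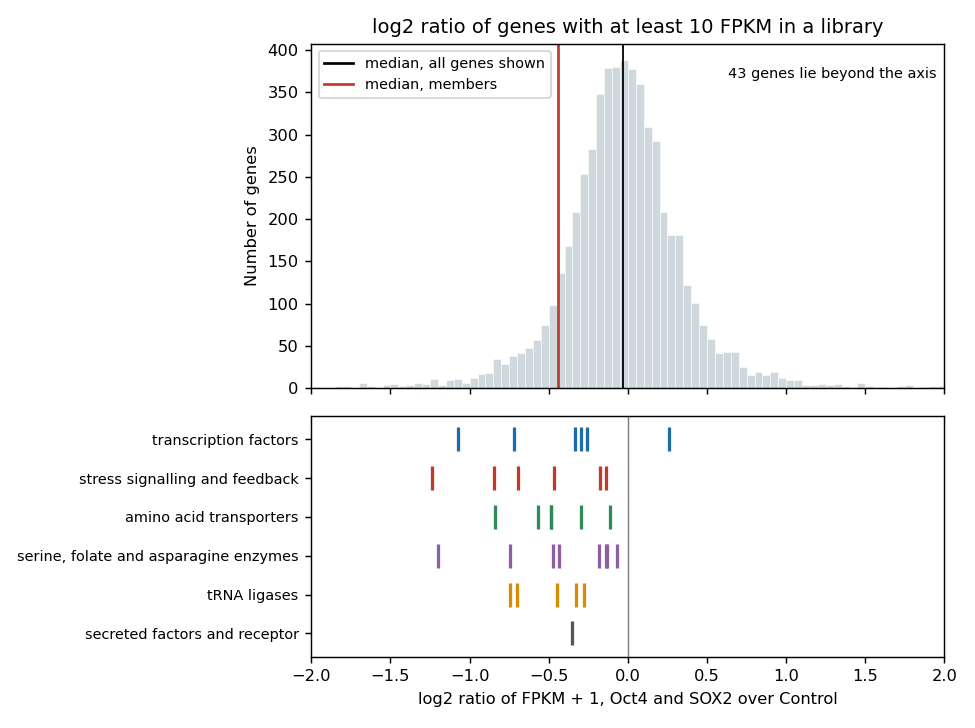
The upper panel is a histogram of log2 ratios on the FPKM + 1 scale for the 5693 genes reaching 10 FPKM, with their median (black) and that of the 32 members at this level (red). The lower panel marks each of these members by role, and all but Nupr1 lie left of 0.

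Among the transcription factor genes, Atf4 itself stood at 298 and 249 FPKM, 1.20 times lower (1.17 to 1.22). It lies on chromosome 15 from 80255184 to 80257541 in GRCm38, and its principal transcript has 3 exons. Atf5, a related factor also induced by stress, differed by almost the same amount, at 303 and 246 FPKM, 1.23 times lower (1.20 to 1.26). The likeness of the 2 levels rests on the deposited gene lengths. Per principal transcript Atf4 would stand at 407 and 341 FPKM, and Atf5 at 332 and 270 FPKM. Cebpg, a dimer partner of ATF4, stood at 32.3 and 25.4 FPKM, 1.27 times lower (1.22 to 1.32). Neighbours in this order had overlapping counting intervals.

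Ddit3 and Cebpb were further apart between the libraries. Ddit3, the gene for CHOP, which acts downstream of ATF4 and can promote cell death, stood at 76.4 and 35.8 FPKM, 2.13 times lower (2.02 to 2.25). Cebpb, a C/EBP factor of stress and inflammation, stood at 68.3 and 41.1 FPKM, 1.66 times lower (1.57 to 1.76). Set against Atf4 in the same library, the level of Ddit3 was 0.256 in the control library and 0.144 in the other. Nupr1, a small chromatin-associated stress protein, went the other way, at 35.5 and 42.7 FPKM from 2847 and 3418 reads, a log2 ratio of 0.26 at percentile 79.8. Atf3, an immediate stress-induced repressor, was nearly silent, with 18 reads against 1, and was not among the measured genes. Its plain ratio was 17.97 times lower with an interval of 2.84 to 749.

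**Figure D2:**
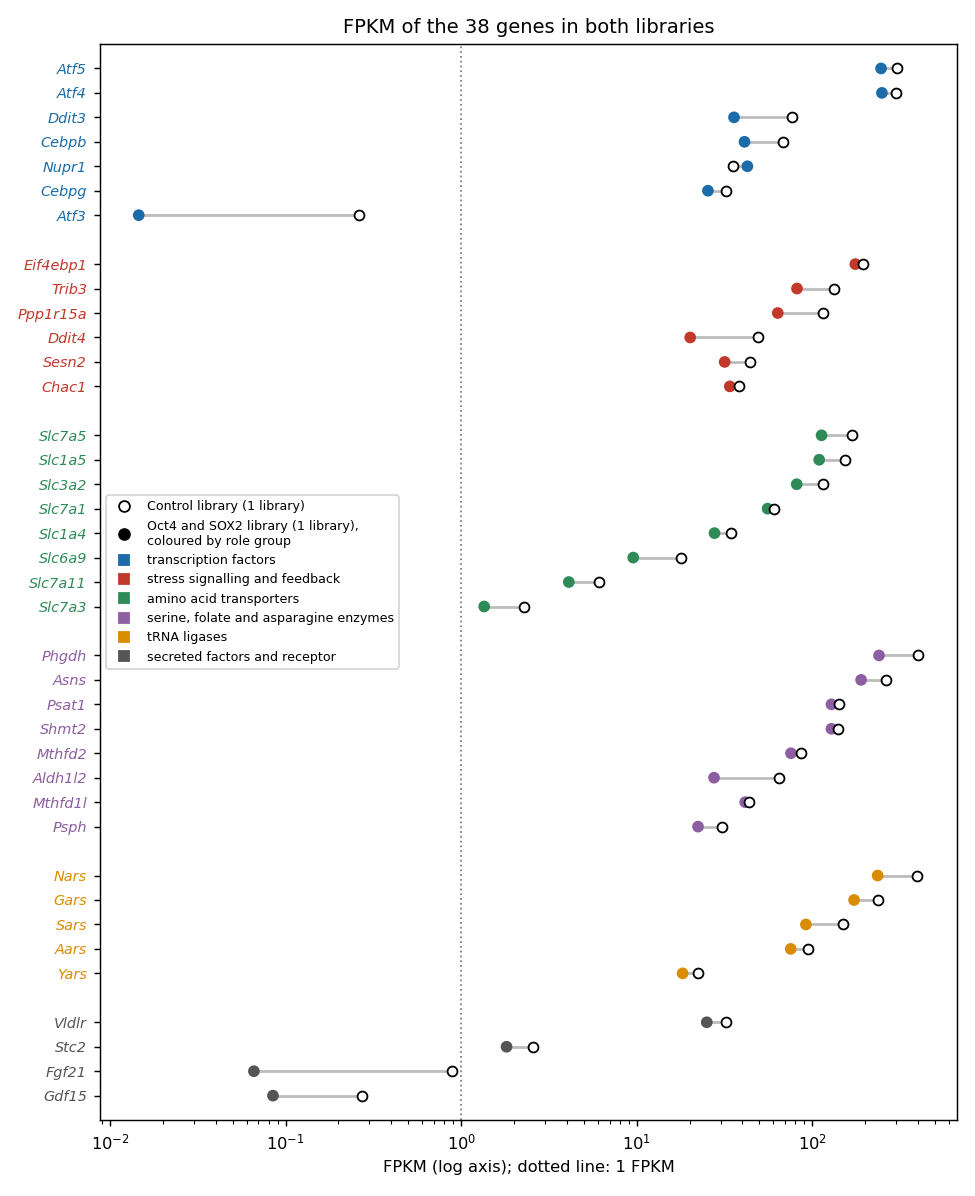
FPKM on a log axis of each of the 38 genes in the control library (open points) and the Oct4 and SOX2 library (filled points, coloured by role), ordered by control level within each role. The filled point lies left of the open one for every gene except Nupr1, and Atf3, Fgf21 and Gdf15 stay left of the dotted line at 1 FPKM.

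The genes of stress signalling and feedback had the lowest median of the 6 role groups, a log2 ratio of -0.58. Ddit4, which encodes the mTORC1 inhibitor REDD1, had the lowest ratio of all measured members. It stood at 48.8 and 20.2 FPKM, 2.42 times lower (2.26 to 2.60), at percentile 0.883 of all genes. Its interval contained that of Aldh1l2 (2.28 to 2.42), so the order of these genes is not settled. Ppp1r15a encodes GADD34, the phosphatase subunit that removes phosphate from eIF2 and so ends the response. It stood at 115 and 63.6 FPKM, 1.81 times lower (1.76 to 1.87). Trib3, a pseudokinase that restrains ATF4 and AKT, stood at 133 and 81.8 FPKM, 1.63 times lower (1.57 to 1.68). These 3 were the members of the group at least 1.5-fold lower.

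The other 3 genes of this group differed less. Sesn2, a leucine-binding inhibitor of mTORC1, stood at 44.1 and 31.7 FPKM, 1.39 times lower (1.33 to 1.45). Chac1, a glutathione-degrading enzyme, stood at 38.4 and 33.9 FPKM, 1.13 times lower (1.06 to 1.21), although with Ddit3 and Trib3 it is a usual marker of the ATF4 response. Eif4ebp1, the gene for the translation repressor 4E-BP1, was the most abundant of the group at 193 and 176 FPKM and was 1.10 times lower (1.07 to 1.13). The intervals of Chac1 and Eif4ebp1 lay wholly above 1 and wholly below those of the other 4 genes.

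All 8 amino acid transporter genes were lower, with a median log2 ratio of -0.48. Slc7a5 and Slc3a2 encode the light and heavy chains of one transporter of large neutral amino acids, LAT1 with 4F2hc, and they moved by like amounts. Slc7a5 stood at 168 and 113 FPKM, 1.49 times lower (1.46 to 1.52), and Slc3a2 at 115 and 81.4 FPKM, 1.41 times lower (1.37 to 1.44). The level of Slc7a5 per Slc3a2 was 1.47 and 1.39. Slc1a5, the glutamine transporter ASCT2, stood at 154 and 109 FPKM, 1.40 times lower (1.37 to 1.43), and its relative Slc1a4, a serine and alanine carrier, at 34.3 and 27.7 FPKM, 1.24 times lower (1.18 to 1.29).

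Slc6a9, the glycine transporter GLYT1, differed most among the transporters and was the only one at least 1.5-fold lower on the FPKM + 1 scale, at 17.9 and 9.55 FPKM, 1.87 times lower (1.76 to 1.99). Slc7a11, the cystine importer that supplies glutathione synthesis, was scarce at 6.09 and 4.10 FPKM, 1.48 times lower (1.40 to 1.57). The cationic amino acid carriers Slc7a1 and Slc7a3 were unlike in level. Slc7a1 stood at 60.1 and 55.6 FPKM, 1.08 times lower (1.06 to 1.102), and Slc7a3 at 2.29 and 1.35 FPKM from 276 and 163 reads, 1.69 times lower (1.39 to 2.06). At the depth of Slc7a3 its interval spans both the 1.5-fold and the 2-fold mark.

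Within serine synthesis the first enzyme stood apart from the second. Phgdh, phosphoglycerate dehydrogenase, which commits the glycolytic intermediate to serine, had the highest control level of all 38 genes. It was at 402 and 239.8 FPKM, 1.68 times lower (1.65 to 1.71). Phgdh (ENSMUSG00000053398) lies on chromosome 3 from 98313170 to 98339990, and its principal transcript has 12 exons. Psat1, the aminotransferase of the next step, stood at 142 and 129 FPKM, 1.103 times lower (1.08 to 1.13). Psph, the phosphatase of the last step, stood at 30.5 and 22.3 FPKM, 1.37 times lower (1.303 to 1.43). The 3 intervals do not overlap, and the level of Phgdh per Psat1 was 2.84 and 1.87.

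Among the mitochondrial folate genes Aldh1l2 stood apart from the others. Shmt2, which splits serine into glycine and a one-carbon unit, stood at 141 and 128 FPKM, 1.09 times lower (1.07 to 1.12). Mthfd2, the dehydrogenase and cyclohydrolase that follows, stood at 86.03 and 75.5 FPKM, 1.14 times lower (1.11 to 1.17), and Mthfd1l, which releases formate, at 43.6 and 41.5 FPKM, 1.05 times lower (1.01 to 1.09). Aldh1l2, which instead burns the one-carbon unit to carbon dioxide and makes NADPH, was 2.35 times lower (2.28 to 2.42), at 64.7 and 27.6 FPKM. The level of Aldh1l2 per Mthfd2 was 0.752 and 0.365. Aldh1l2 (ENSMUSG00000020256) lies on chromosome 10 from 83487450 to 83534140, with 23 exons in its principal transcript. Asns, asparagine synthetase, stood at 264 and 189.6 FPKM, 1.39 times lower (1.36 to 1.42). The median log2 ratio of the 8 enzyme genes was -0.31, and 2 of them, Phgdh and Aldh1l2, were at least 1.5-fold lower.

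**Figure D3:**
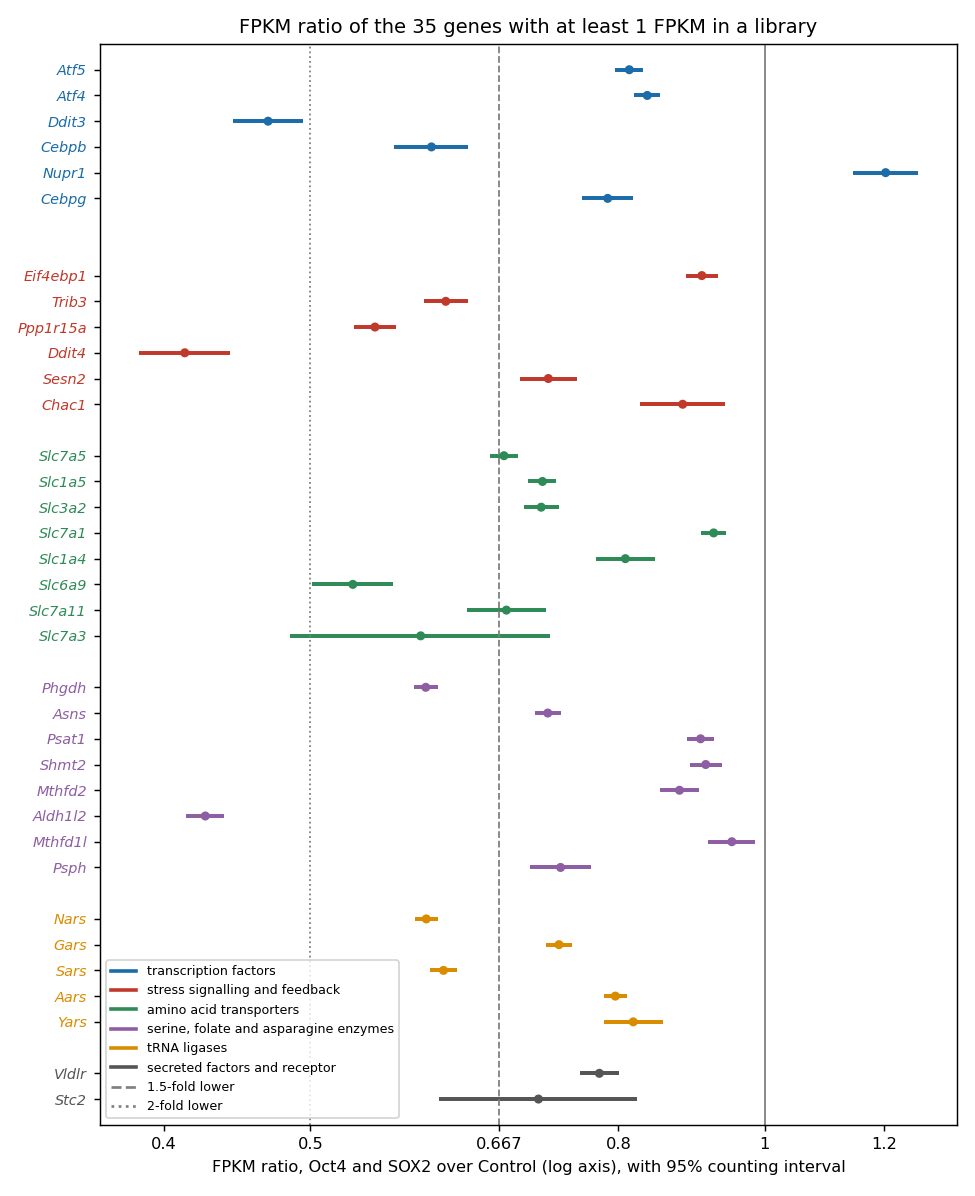
Plain FPKM ratio, Oct4 and SOX2 over control, on a log axis for the 35 measured genes, with the 95% counting interval as a bar and colour by role. Ddit4, Aldh1l2 and Ddit3 lie left of the 2-fold line, and Nupr1 alone lies right of 1. Shmt2, Psat1, Mthfd2, Mthfd1l, Slc7a1, Eif4ebp1 and Chac1 lie just left of 1.

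The tRNA ligases attach amino acids to their tRNAs, and the 5 members were all lower, with a median log2 ratio of -0.45. Nars, for asparagine, stood at 395 and 235 FPKM, 1.68 times lower (1.65 to 1.71). Sars, for serine, stood at 150.1 and 91.9 FPKM, 1.63 times lower (1.60 to 1.67). Gars, for glycine, stood at 237 and 173 FPKM, 1.37 times lower (1.34 to 1.40). Aars, for alanine, was at 94.6 and 75.3 FPKM, 1.26 times lower (1.23 to 1.28), and Yars, for tyrosine, at 22.3 and 18.3 FPKM, 1.22 times lower (1.17 to 1.28). Nars and Sars had overlapping intervals, as did Aars and Yars, and Gars lay between these pairs. Summed, the 5 genes stood at 898 and 594 FPKM.

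Secreted factors of the response were scarce. Vldlr, a lipoprotein receptor gene induced by ATF4, stood at 32.2 and 25.05 FPKM, 1.29 times lower (1.25 to 1.33), and Stc2, the secreted glycoprotein stanniocalcin 2, at 2.56 and 1.81 FPKM, 1.41 times lower (1.21 to 1.64). The stress hormones Fgf21 and Gdf15 were below the measured level in both libraries. Fgf21 had 27 and 2 reads, 13.5 times lower with an interval of 3.39 to 117. Gdf15 had 16 and 5 reads, 3.19 times lower with an interval of 1.12 to 11.1. With Atf3 these were the 3 members at the lowest level, and all 3 had fewer reads with Oct4 and SOX2.

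ATF4 and C/EBP dimers bind a composite DNA element, the C/EBP-ATF response element, whose core is commonly written TGATGNAA. It was searched on both strands of RefSeq promoter windows of GRCm38.p6, from 250 bases before to 50 bases after each annotated start. Windows were matched for 32 of the 38 genes, the others being Nars, Slc7a3, Eif4ebp1, Slc7a5, Slc1a5 and Aldh1l2. The core was found for 12 of the 32, or 37.5%, and for 4.51% of all 27025 symbols with a window. The stricter form TGATGCAA was found for 9 of the 32 and for 1.03% of all symbols. The members were listed as genes of the ATF4 response, so their larger share gives no independent support for the element. A match is a description of letters and not a shown binding site. Stricter matches of 8 genes are printed 5′ to 3′ with the core in capitals, each read on the strand that gives TGATGCAA, so that the flanks can be compared.

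Atf3, chr1:191183425-191183454, plus strand: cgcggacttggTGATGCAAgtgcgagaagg
Chac1, chr2:119351038-119351067, minus strand: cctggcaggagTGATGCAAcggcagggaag
Fgf21, chr7:45615611-45615640, plus strand: gcctggacggaTGATGCAAtgggggggtct
Nupr1, chr7:126625562-126625591, plus strand: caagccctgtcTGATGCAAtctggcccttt
Slc1a4, chr11:20332699-20332728, plus strand: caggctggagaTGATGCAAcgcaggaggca
Slc7a11, chr3:50443642-50443671, plus strand: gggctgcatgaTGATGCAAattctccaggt
Slc7a11, chr3:50443661-50443690, minus strand: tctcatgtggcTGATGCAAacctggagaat
Vldlr, chr19:27216809-27216838, minus strand: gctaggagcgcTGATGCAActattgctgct
Yars, chr4:129189895-129189924, plus strand: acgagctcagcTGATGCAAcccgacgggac

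In 7 of these 9 sites the core as written runs against the direction of the gene, the exceptions being Yars and the second of the Slc7a11 sites. Asns and Gars held TGATGAAA, and Trib3 TGATGTAA. Among measured members with a window, those with a match were not those furthest lower, a difference that was not tested. Atf3 and Fgf21 held TGATGCAA and were 17.97 and 13.5 times lower by plain ratio, but were too scarce to be measured. Members without a window, Aldh1l2 and Nars included, are in neither group. The 10 measured members with a TGATGNAA match had a median log2 ratio of -0.34 and 1 of them, Trib3, was 1.5-fold lower. The 19 measured members whose window held no match had a median of -0.43, and 7 of them were 1.5-fold lower, Ddit3 and Phgdh included. Nupr1, the gene that was higher, was among those with TGATGCAA.

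Outside the members, the same core was found in the windows of 211 measured genes, whose median log2 ratio was -0.05, with 56.4% below 0. Among 8255 measured genes whose window lacked it the median was -0.01, with 51.3% below 0. Windows were matched for 8495 measured genes, members included, and the rest of the 12401 are in neither group. At least 1.5-fold lower were 9.48% of the genes with the core and 4.09% of those without, and at least 1.5-fold higher were 7.58% and 5.00%. Both shares were larger with the core, a difference that was not tested.

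The genes upstream of ATF4 had a median nearer 0 than the members. Of 17 genes for stress kinases, eIF2, eIF2B and their regulators, all measured, 12 were below 0, 1 was at least 1.5-fold lower and none was 1.5-fold higher, with a median of -0.13. The one past 1.5-fold was Eif2ak2, the double-stranded RNA kinase PKR and an interferon-induced gene, at 52.3 and 32.01 FPKM, 1.63 times lower (1.58 to 1.69). Eif2ak3 and Eif2ak4, chosen after their values were seen, encode PERK, the kinase of the endoplasmic reticulum, and GCN2, the sensor of uncharged tRNA. Eif2ak3 stood at 6.34 and 5.05 FPKM, and Eif2ak4 at 6.70 and 7.15 FPKM.

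Other ATF, CREB and C/EBP factors were mixed, with 10 of 15 measured genes below 0 and a median of -0.21. Xbp1, the factor spliced by the sensor IRE1, was 1.75 times lower (1.66 to 1.85), from 34.3 to 19.6 FPKM, and Creb3l2 also 1.75 times lower (1.64 to 1.86), from 11.2 to 6.38 FPKM. Cebpd, a C/EBP gene of acute inflammation, was higher, at 4.23 and 13.6 FPKM, 3.21 times (2.90 to 3.55), opposite to Cebpb. Genes for unfolded protein sensors and chaperones had 13 of 15 measured below 0, 3 at least 1.5-fold lower and a median of -0.42, close to that of the members. Hspa5, the chaperone BiP, stood at 596 and 358 FPKM, 1.66 times lower (1.65 to 1.68). Ern1, the gene for IRE1, was 1.81 times lower (1.77 to 1.85) and Dnajb9, a BiP co-chaperone, 1.92 times lower (1.77 to 2.08).

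The remaining tRNA ligases followed the members only in part. The list of 19 measured genes, which includes scaffold proteins of the ligase complex, had 12 below 0, 1 at least 1.5-fold lower and a median of -0.12. Rars, for arginine, was the one past 1.5-fold, at 138 and 76.9 FPKM, 1.79 times lower (1.74 to 1.84). Hars, Kars and Mars, chosen after their values were seen, were among the 7 genes above 0. They stood at 95.3 and 104 FPKM, 50.7 and 59.4 FPKM, and 69.3 and 72.9 FPKM. Lars, the most expressed of the list, was lower, at 207 and 144 FPKM, 1.44 times (1.41 to 1.46). Over all 21 cytosolic ligases, members included and scaffold proteins left out, 15 were below 0 with a median of -0.27. Mitochondrial ligases had a median of -0.02 over 17 genes, with 10 below 0, and Fars2, at 2.92 and 1.30 FPKM, was the one at least 1.5-fold lower.

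**Figure D4:**
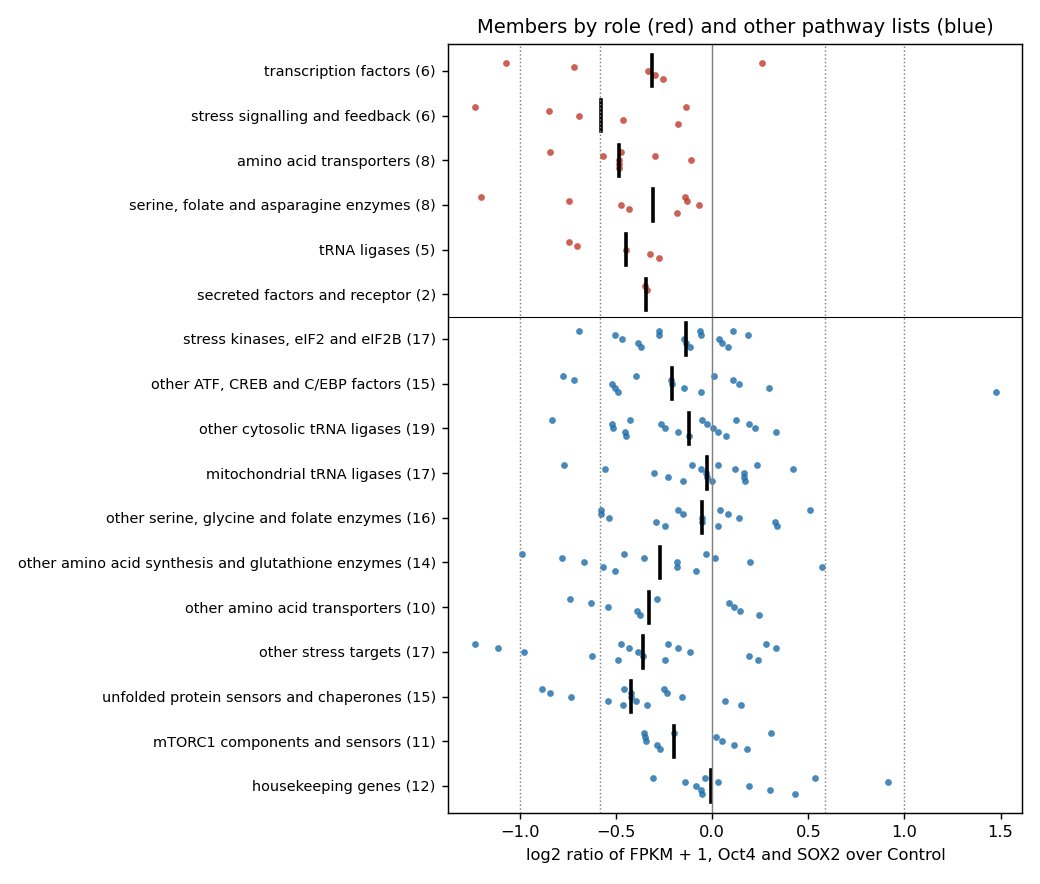
Log2 ratio of FPKM + 1, Oct4 and SOX2 over control, of each measured gene in the 6 role groups of the members (red) and 11 other pathway lists (blue), with list medians as black bars, the number of genes in brackets, and dotted lines at 1.5-fold and 2-fold. Medians of the role groups lie between -0.58 and -0.31. Within that range also lie those of the other amino acid transporters (-0.33), other stress targets (-0.36) and chaperones (-0.42). Those of the stress kinase, tRNA ligase and folate lists lie nearer 0.

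Other serine, glycine and folate enzymes were spread around 0, with 9 of 16 measured genes below it, a median of -0.05 and none past 1.5-fold on the FPKM + 1 scale. The most expressed were Dld, the shared dehydrogenase of glycine cleavage and of pyruvate oxidation, at 66.6 and 44.3 FPKM, and Gcsh, the carrier protein of glycine cleavage, at 43.4 and 41.9 FPKM. Chosen after their values were seen, Shmt1, the cytosolic counterpart of Shmt2, stood at 8.08 and 10.5 FPKM, and Mthfd1, the cytosolic folate enzyme, at 30.1 and 31.02 FPKM. Neither was lower with Oct4 and SOX2.

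Amino acid synthesis outside serine was lower for some enzymes. The list also holds glutathione enzymes, with Gclm its highest gene at a log2 ratio of 0.57, and Gclc and Gss at -0.19 and -0.09. Over the whole list 11 of 14 measured genes were below 0, 3 were at least 1.5-fold lower and the median was -0.27. Got1, the cytosolic aspartate aminotransferase, stood at 129 and 64.7 FPKM, 1.999 times lower (1.93 to 2.07). Pycr1, a proline synthesis enzyme, was 2.02 times lower (1.75 to 2.32) from 4.79 FPKM, and Gpt2, the mitochondrial alanine aminotransferase, 1.61 times lower (1.55 to 1.68) from 33.0 FPKM. Other amino acid transporters had 6 of 10 measured genes below 0 and a median of -0.33. Slc6a8, the creatine transporter, was 1.70 times lower (1.63 to 1.77) and Slc6a6, the taurine transporter, 1.58 times lower (1.52 to 1.64).

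Of other stress targets 13 of 17 measured were below 0, with 4 at least 1.5-fold lower and a median of -0.36. Gadd45a and Sqstm1 were at least 2-fold lower, and Bbc3, the gene for the death protein PUMA, stood at 26.2 and 12.8 FPKM, 2.05 times lower (1.89 to 2.22). Cdkn1a, the gene for the cell cycle inhibitor p21, stood at 144 and 93.3 FPKM, 1.55 times lower (1.51 to 1.58). The list of mTORC1 components and sensors, some of which read amino acid supply, had 6 of 11 measured genes below 0. Its median was -0.20 and none was past 1.5-fold. The most expressed genes of that list were Rps6, at 631 and 494 FPKM, and Akt1s1, at 30.7 and 25.3 FPKM. Rps6 encodes a ribosomal protein downstream of mTORC1, not a component or sensor. Housekeeping genes had 6 of 12 below 0 and a median of -0.00, with Ppia, a proline isomerase gene, 1.89 times higher (1.85 to 1.93).

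The way genes were bounded in the annotation bears on some levels and less on ratios between the libraries. For 37 of the 38 genes the deposited position and length equalled those in GENCODE M21, the exception being Nars. The deposited length is that of all exons joined, and for Nupr1 it was 3.03 times the length of the principal transcript. Per principal transcript Nupr1 would stand at 108 and 129 FPKM, and Ddit3, whose ratio of lengths was 1.92, at 147 and 68.9 FPKM. The level of one gene per another, as given above for Phgdh per Psat1 and other pairs, also depends on the lengths used. Per principal transcript Phgdh would stand at 528 and 315 FPKM, and Psat1 at 230 and 209 FPKM. Exons of 11 members shared bases with another gene, and for 6 of them over 10% of the exon length was shared, with Slc6a9 at 30.2%, Cebpb at 20.7%, Aars at 15.1%, Aldh1l2 at 14.1%, Ddit3 at 10.9% and Psph at 10.4%. Neither strand use nor the assignment of shared reads is stated in the sources used here, so reads of these genes may be incomplete or mixed. Tmem189, opposite Cebpb, had 609 and 738 reads. D10Wsu102e, opposite Aldh1l2, had 4707 and 3922 reads, and Cct6a, opposite Psph, 22079 and 17489. A second table entry also named Ddit3, of 105 bases within the first, had 0 reads in both libraries.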

How the data were processed

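The authors deposited 1 table of FPKM values for 54532 genes in both libraries, with gene position and gene length as another quantity in bases. CASAVA, HISAT2, featureCounts 1.5.0-p3 and the build GRCm38 are listed per the submitters' processing notes. Not given in the sources used here: the FPKM formula, annotation release and strandedness. FPKM times the deposited length gave whole read numbers, within 0.001 of a read, for 100% of values in each library. The totals implied by the authors' FPKM were 0.989 and 1.01 times the read sums. Genes were counted at 1.5-fold and 2-fold on log2(FPKM + 1), with at least 1 FPKM in a library. With 1 library per group no samples could be tested. The members and lists were chosen with earlier results of these data known, and give no independent support. All 38 members are named. From each other list the text names up to 4 measured genes per direction at 1.5-fold or, where none, the 2 most expressed; others were picked with their values known. Calculations were checked on simulated data. GENCODE M21 (GRCm38) gave exon structure and GC content. Promoter windows are from RefSeq GRCm38.p6, and 35 of the 39 member windows held the start of a GENCODE transcript. The sequence of 1 TGATGCAA match is not reported here, and those of other forms of the core are not printed. Alternatives were other pseudocounts, filters, gene classes and scalings. Python 3.11.15, numpy 2.4.6, pandas 2.3.3, scipy 1.17.1 and matplotlib 3.10.9 were used.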

Additional observations from a re-analysis of the deposited data

How the results depend on the processing

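No paired analysis was possible because each group holds 1 library, and for the same reason none could be left out. Under every setting run, 34 of the measured members, or 31 at 10 FPKM and 37 without a filter, stayed below 0 and Nupr1 above. The number of members at least 1.5-fold lower was 10 or 11 throughout, and that at 2-fold was 3, or 2 with a pseudocount of 5 FPKM, where Ddit3 was at -0.996. That pseudocount gave medians of -0.31 for all members and -0.38 for transporters. Small differences depend on the scaling, which the counting intervals do not cover. Mthfd1l was at a log2 ratio of -0.07 as deposited and -0.04 with plain read totals. The tRNA ligase median was -0.42 with plain read totals and -0.42 without the 50 most expressed genes, and -0.41 when centred within 10 classes of GC content, an alternative added after seeing the data, as was centring by gene length. Members had a median GC content of 52.8% and measured genes 49.3%. Over all genes, those at least 1.5-fold lower and higher numbered 786 and 816, 282 and 278 with a pseudocount of 5, 337 and 296 from 10 FPKM, and 460 and 484 among protein-coding genes. At 2-fold they numbered 230 and 300, 459 and 520 with a pseudocount of 0.1, 56 and 75 with 5, 87 and 95 from 10 FPKM, and 110 and 143 among protein-coding genes. The cause of these differences was not tested. Depth limits Atf3, Fgf21, Gdf15 and Slc7a3.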

Other observations

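Among genes outside the fixed lists whose promoter window held TGATGCAA, chosen after their values were seen, some stood far apart between the libraries; the control value comes first. Avil, an actin-binding villin family gene, was at 12.8 and 1.75 FPKM, and Serpinf1, for pigment epithelium-derived factor, at 7.64 and 0.865 FPKM. Chchd10, a mitochondrial protein gene, had 87 and 5 reads. Gadd45g, a stress-induced relative of Gadd45a, stood at 50.7 and 29.5 FPKM. In the other direction Arid5b, a chromatin factor gene, stood at 6.08 and 17.9 FPKM, and Sh3bgrl at 39.1 and 88.6 FPKM. Of the 57 measured genes outside the members with TGATGCAA, 7 (12.3%) were at least 1.5-fold lower and 8 (14.04%) at least 1.5-fold higher, against 4.17% and 5.01% of 8409 measured genes whose window lacked it, a difference that was not tested. The other lower genes were Got1, Pycr1 and Pdzd7, and the other higher ones Gm10488, Gm14632, Gm15446, Limd2, Ncapd3 and Pld4. No binding of ATF4 was measured here.

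The processed pseudogene Phgdh-ps1, on chromosome 7, had 175 and 83 reads, 2.10 times lower, where Phgdh was 1.68 times lower. The handling of reads matching several places is not stated in the sources used here. Gapdh, a housekeeping gene usually among the most abundant, was listed at only 10.00 and 12.6 FPKM.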
